A study of Homo sapiens with 2 samples.

Results

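The mitochondrial ribosomal proteins were followed as 76 genes, all those of the 22458 with a symbol in the table whose symbol was MRPL or MRPS with a number and at most a letter A to C. By that name 49 belong to the large and 27 to the small subunit. MRPS24 was the 1 further RefSeq symbol that matched the rule and was not analysed here. The samples were U87 cells, an established human glioblastoma line, given 20 µM LXR623, a synthetic agonist of the liver X receptor, or 0.1% DMSO as solvent, both for 24 h in medium with reduced serum. Each condition was measured on 1 array, so the differences could not be tested and describe these arrays alone.

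The mitochondrial ribosome translates the few mRNAs of the mitochondrial genome, which encode membrane subunits of the respiratory chain and ATP synthase. Its rRNAs come from mitochondrial DNA, whereas all its proteins are made in the cytosol from nuclear genes and imported. Many of these proteins descend from bacterial ribosomal proteins, and others were added in the mitochondrial lineage. The comparison asks how transcripts of glioma cells differ after a day with an LXR agonist.

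The treatment and the cell line were checked first. ABCA1, the cholesterol export pump and a direct LXR target, was at log2 8.30 in control and 10.1 with LXR623. HCT116, the name of a line from colon carcinoma, stands in the culture text, whereas every other label gives U87. The 6 mesenchymal markers measured ranged from log2 9.67 to 12.5 over both arrays. The 10 colon epithelial markers ranged from 2.25 to 5.67, with CDH1 (E-cadherin) at 3.53 and 3.60 and EPCAM at 5.07 and 4.50. Of these 10, 8 passed the level filter and 4 lay above the median level of all probe sets. Of the 5 astrocyte markers, 3 passed the level filter, among them GFAP at 4.76 and 4.68, and 0 reached the median level of all probe sets.

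All 76 members passed the level filter, with mean levels over both arrays from log2 4.64 to 10.3. Between the arrays most of them hardly differed. The median of the differences, log2 LXR623 minus log2 control, was -0.054 (mean -0.023, SD over genes 0.17), beside 0 over the 16902 genes kept by the filter and -0.016 over the 11888 kept genes within the members' range of levels. In the LXR623 array 30 members were higher, 44 were lower and 2, MRPL33 and MRPS26, had the same value, beside 48.8% higher and 48.3% lower of all kept genes and 46% and 52.3% of those within the level range. The interquartile range of the members ran from -0.14 to 0.061, a width of 0.20 against 0.32 for all kept genes. The members thus lay closer together than all kept genes did.

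At 1.2-fold, a log2 difference of 0.26, 5 members were higher and 3 lower. These are 6.58% and 3.95% of the members, beside 15.3% higher and 13.6% lower among all kept genes. Within the members' level range the percentages of all genes were 12.7 and 14.2. At 1.5-fold 1 member was higher, beside 2.38% of kept genes (1.99% within the level range), and 0 were lower, beside 2.01% (2.03%). Just past the 1.2-fold limit were MRPL17 at 0.28 and MRPS14 at -0.30. Just short of it were MRPS21 at 0.26 (1.198-fold) and MRPL15 at -0.25 (1.19-fold).

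**Figure D1:**
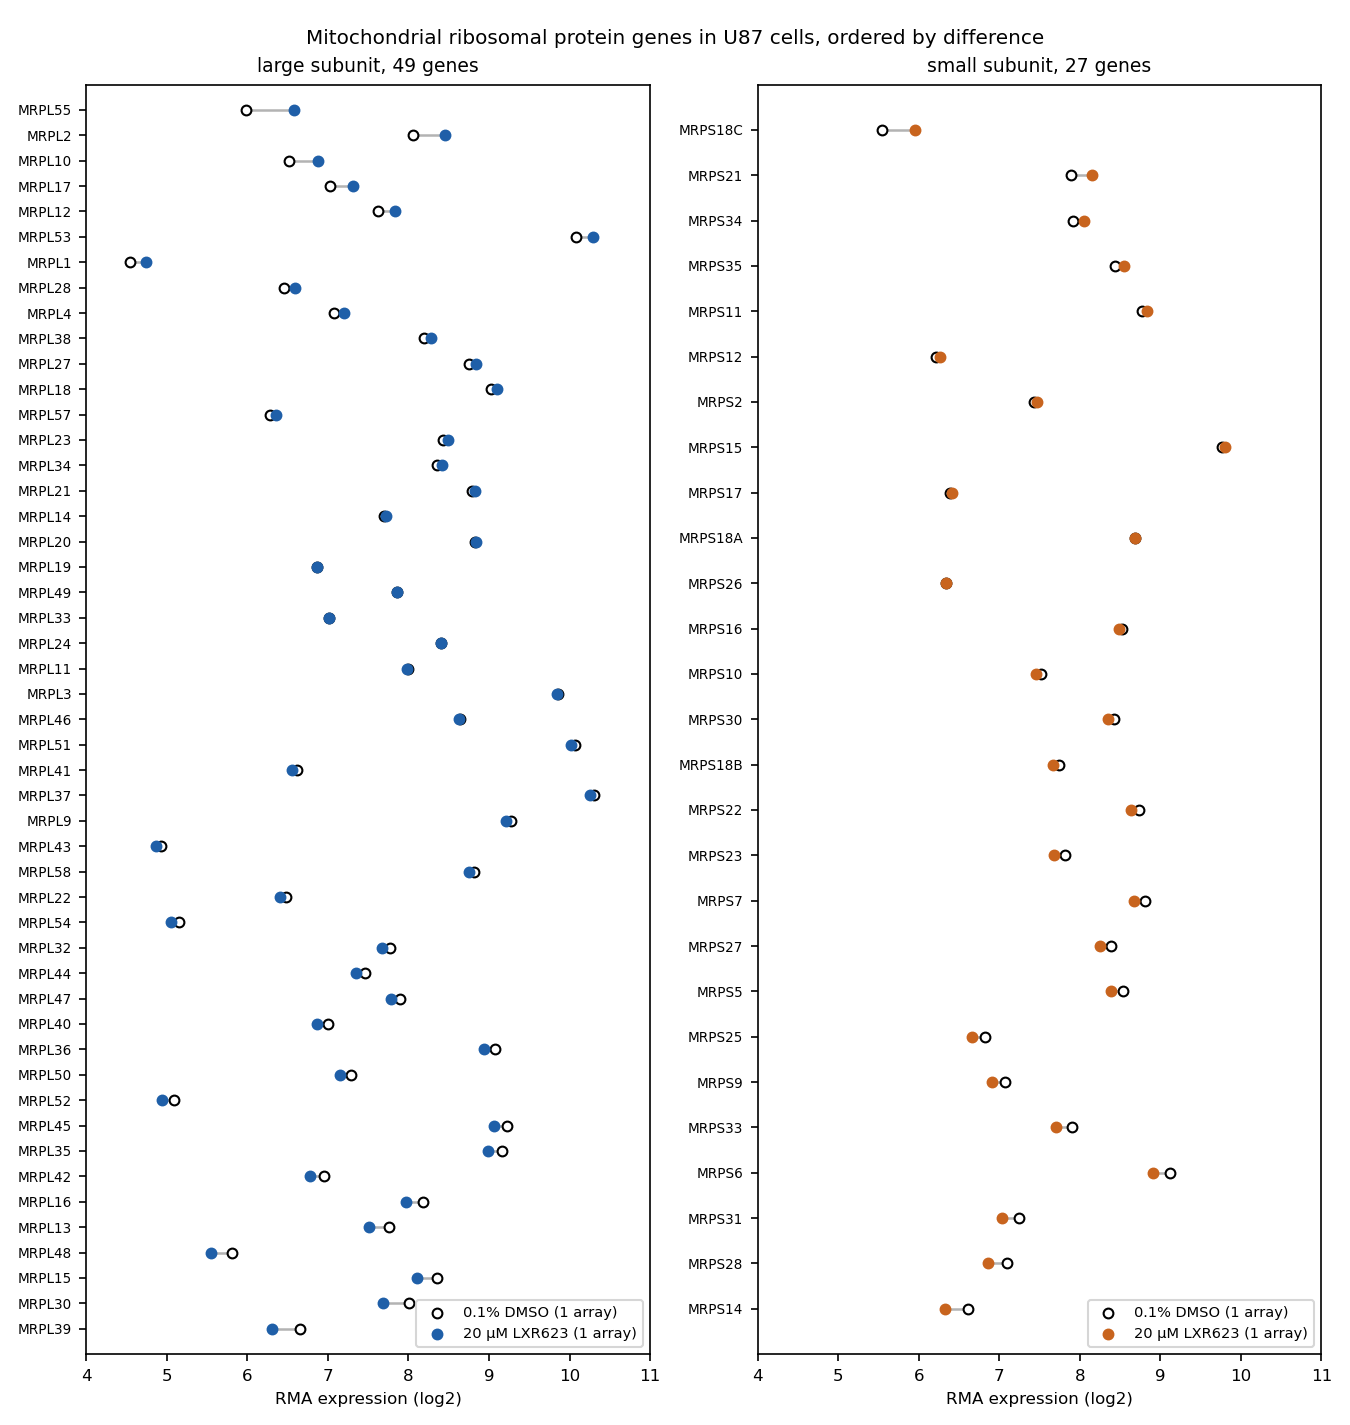
RMA expression on the log2 scale of each member on the control array (open circles) and the LXR623 array (filled circles), large subunit on the left and small on the right, ordered by difference. Most pairs of circles touch, and MRPL55, MRPS18C and MRPL2 stand widest apart on the higher side.

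The highest member was MRPL55, a large subunit protein with a bacterial counterpart. It was at log2 5.98 in control and 6.58 with LXR623, 1.51-fold higher. It was the 1 member outside the central 95% of single genes at a like level, and the other 75 lay inside theirs. For MRPL55 these limits ran from -0.58 to 0.56, with the genes ordered by level and divided into 5 groups. Such limits hold 95% of the kept genes by construction, so 1 of 76 members outside is no more than among all kept genes. MRPS18C was at 5.55 in control and 5.95 with LXR623, 1.32-fold higher, and MRPL2 at 8.06 and 8.46, also 1.32-fold higher. MRPL10 and MRPL17 were the other members past 1.2-fold on this side.

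On the lower side the differences were smaller. MRPL39, a large subunit protein related in sequence to threonyl-tRNA synthetases, was at log2 6.65 in control and 6.30 with LXR623, 1.27-fold lower. MRPL30 was at 8.003 and 7.687, 1.25-fold lower. MRPS14, a protein of the small subunit's head, was at 6.62 and 6.32, 1.23-fold lower. These were the 3 members past 1.2-fold on this side, from both subunits. MRPL15 followed at 8.36 and 8.11, then MRPL48 at 5.80 and 5.55, MRPL13 at 7.75 and 7.51 and MRPS28 at 7.10 and 6.87. Of these 4, MRPL48 is the one without a bacterial counterpart.

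The large and small subunits were then compared. The 49 large subunit genes had a median difference of -0.014, with 20 higher and 28 lower, and ranged from -0.34 to 0.59. The 27 small subunit genes had a median of -0.072, with 10 higher and 16 lower, and ranged from -0.30 to 0.40. The large subunit median was thus 0.058 above that of the small subunit, which is small beside the spread over genes within each (SD 0.18 and 0.16), and the ranges overlapped almost entirely. At 1.2-fold 4 large subunit genes were higher and 2 lower (8.16% and 4.08%), and 1 and 1 of the small subunit (3.70% each), all below the 15.3% and 13.6% of all kept genes. MRPS18A and MRPS30 carry small subunit names but are large subunit proteins in the human structure, and counting them there left the large minus small difference at 0.065. Genes are not replicates, and the difference between subunits was not tested.

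Within the large subunit, 3 genes of the stalk that receives translation factors were measured. Of them 1 was higher at 1.2-fold, beside 15.3% of all kept genes, and 3 genes are too few to compare shares. MRPL10, which anchors the stalk, was at log2 6.51 in control and 6.87 with LXR623, 1.28-fold higher. MRPL12, the stalk protein bound to it, was at 7.62 and 7.83, 1.16-fold higher. MRPL11, at the stalk base, was at 7.995 and 7.985. The 3 values had a median difference of 0.21.

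Genes around the peptidyl transferase centre, where amino acids are joined, spread to both sides. MRPL2, the highest of the 5, was described above. MRPL4 was at log2 7.08 in control and 7.20 with LXR623, and MRPL27, which reaches toward the tRNA end, at 8.76 and 8.84. MRPL3 was at 9.86 and 9.85. MRPL16 was at 8.18 and 7.96, 1.16-fold lower. The values of MRPL2 and MRPL16, thus lay on opposite sides of 0.

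At the exit of the peptide tunnel 6 of 8 genes were lower, beside 57.9% of all members and 48.3% of all kept genes. Their median was -0.094, and 8 genes are too few to compare shares. MRPL45, which holds the ribosome to the inner membrane, was at log2 9.22 in control and 9.06 with LXR623. MRPL44 was at 7.45 and 7.35, MRPL47 at 7.90 and 7.78 and MRPL22, which lines the tunnel, at 6.48 and 6.40. MRPL39 was the lowest of this group and the 1 past 1.2-fold on the lower side. MRPL24 was at 8.41 and 8.40, MRPL23 at 8.42 and 8.49, and MRPL17 at 7.03 and 7.31. MRPL17 was the 1 member of the group past 1.2-fold on the higher side. These are 12.5% on each side, beside 15.3% higher and 13.6% lower of all kept genes.

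In the central protuberance, the crown of the large subunit, 4 of 6 genes were lower (median -0.038), beside 57.9% of all members. MRPL48, given above, was the lowest, 1.19-fold lower with LXR623. MRPL40 was at 6.99 and 6.87. MRPL58, a peptidyl-tRNA hydrolase that rescues stalled ribosomes and was built into the large subunit, was at 8.82 and 8.75. MRPL46 was at 8.64 and 8.63. On the higher side were MRPL18 at 9.02 and 9.10 and MRPL38 at 8.19 and 8.28, and 0 of the 6 differed by 1.2-fold.

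In the small subunit, 3 genes of the mRNA channel and decoding site were measured. MRPS12, the decoding site protein, was at log2 6.22 in control and 6.26 with LXR623. MRPS2 was at 7.44 and 7.47, and MRPS5 at 8.54 and 8.39. None of them differed by 1.2-fold.

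The paralogs of bacterial S18 did not share 1 value. MRPS18A was at log2 8.68 in control and 8.69 with LXR623, MRPS18B was at 7.74 and 7.66, and MRPS18C was the 1.32-fold higher gene described above. MRPS18C has 6 pseudogenes named after it in the RefSeq table, MRPS18B has 2 and MRPS18A has 1, so probes may read more than the gene itself, which was not tested. MRPS21, the sixth highest member at 7.89 and 8.16, has 9 such pseudogenes. MRPL53, the eighth highest, was at 10.1 and 10.3 and has 1.

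**Figure D2:**
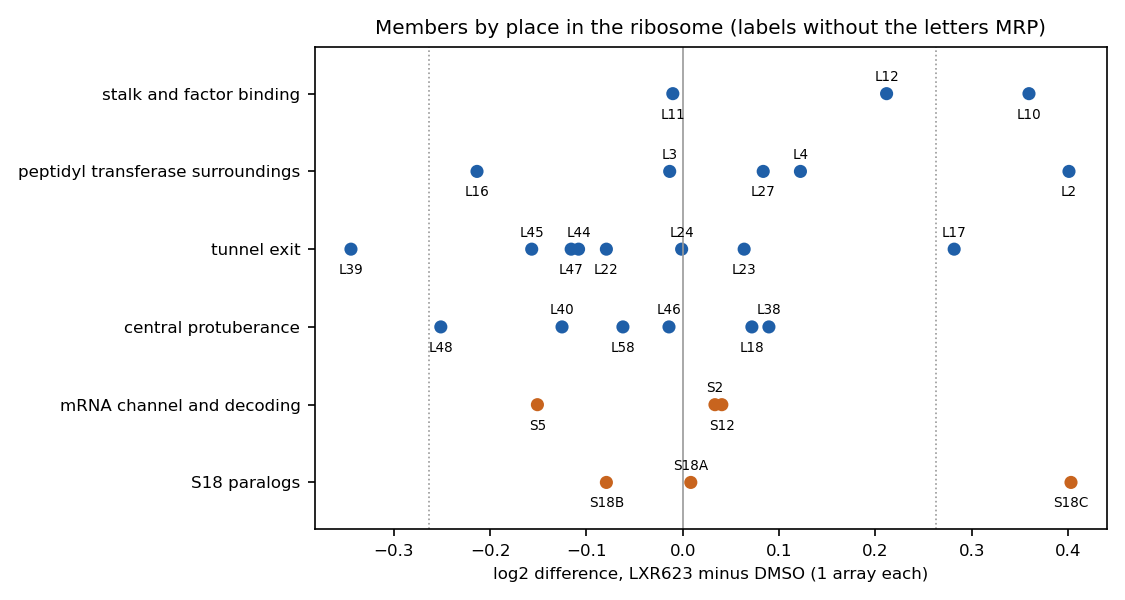
Log2 difference, LXR623 minus DMSO with 1 array each, of the members of 6 groups by place in the ribosome, large subunit in blue and small in orange, with dotted lines at 1.2-fold. MRPL2, MRPS18C, MRPL10 and MRPL17 lie beyond the upper line and MRPL39 beyond the lower.

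The other 48 members, in none of these groups, had a median of -0.060, with 17 higher and 29 lower. The 27 of the large subunit among them had a median of -0.057 and ranged from -0.32 (MRPL30) to 0.59 (MRPL55). The 21 of the small subunit had a median of -0.096, with 14 lower, and ranged from -0.30 (MRPS14) to 0.26 (MRPS21).

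Grouped by descent, the genes differed more than by subunit. The 29 members without a bacterial counterpart had a median of -0.091, with 22 lower and 6 higher. The 47 with a bacterial counterpart had a median of 0.0057, with 22 lower and 24 higher. At 1.2-fold, 0 of the 29 were higher and 1, MRPL39, was lower (3.45%). Of the 47, 5 were higher and 2 lower at 1.2-fold (10.6% and 4.26%). All these shares were below the 15.3% higher and 13.6% lower of all kept genes. The share that was lower was thus 75.9% of the mitochondria-specific and 46.8% of the bacterial-type genes, beside 48.3% of all kept genes. The same order was seen in each subunit, at -0.062 and 0.012 in the large and -0.11 and -0.040 in the small. All of these medians were small beside the spread of single genes, and the split was not tested.

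Gene span moved with the difference as well. Across the 76 members, which are not independent replicates, longer genes had lower differences (Pearson's r = -0.38 on log10 span, Spearman's rho = -0.43). Without the 2 most extreme spans r was -0.38, and over all kept genes it was -0.14. The 25 longest members, of 15.1 to 111.5 kb, had a median of -0.14 and 19 of them were lower. The 26 shortest, up to 5.41 kb, had a median of 0.0025 with 12 lower. All kept genes within the same 2 ranges of span had medians of -0.012 and 0.059. The members without a bacterial counterpart had a median span of 9.68 kb and those with one 8.62 kb, and among the 25 longest genes the classes had medians of -0.16 (10 of 11 lower) and -0.098 (9 of 14 lower). Members with a pseudogene named after them in RefSeq, 40 in all, had a median difference of -0.072 and a median span of 12706 bp, and the 36 without one had 0 and 8060 bp. What part span or pseudogenes had in these differences was not tested.

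**Figure D3:**
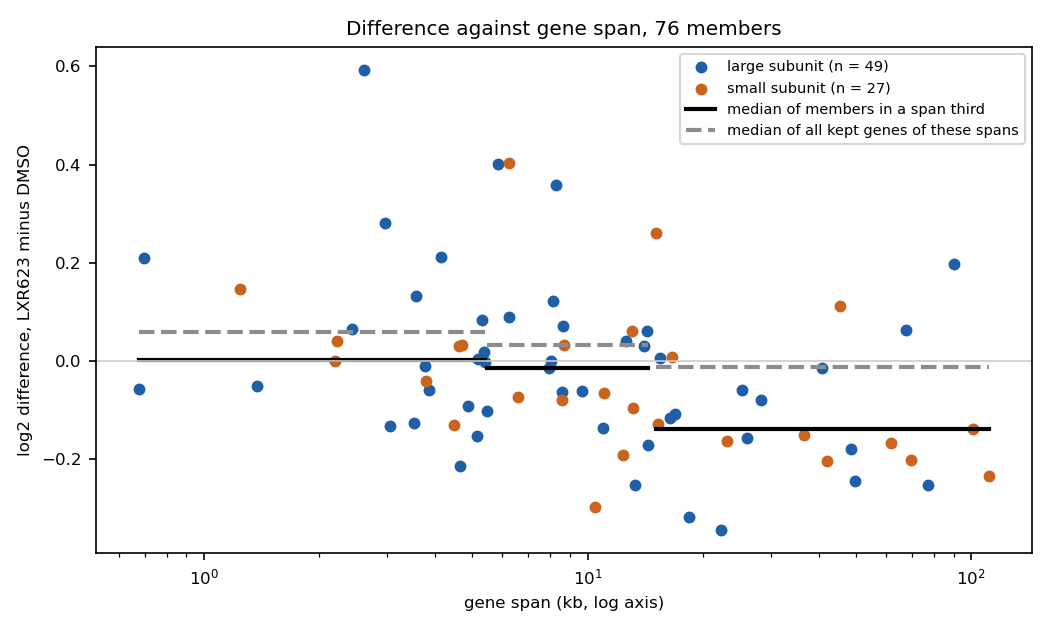
Log2 difference, LXR623 minus DMSO with 1 array each, of the 76 members against gene span in kb on a log axis, large subunit in blue and small in orange. Black lines give the member medians of the 26 shortest, 25 middle and 25 longest genes and dashed lines those of all kept genes of the same spans, and the lines lie farthest below 0 in the longest genes, at -0.14 for the members.

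The promoters of these genes share sequence features that the naming rule did not use. RefSeq gave 84 start regions, from 250 bases before to 50 after a start, for 68 members, and 8 members had none in the table. Exact letters on both strands were searched for factors known to bind such promoters. The ETS letters CCGGAAG, as bound by GABPA, stood in 39.3% of the members' regions and in 10.3% of all 35116 regions. The YY1 letters AAGATGGC stood in 26.2% and 2.89%, and the palindromic NRF1 motif in 1.19% and 1.24%. Matches of different motifs overlapped 0 times. Of 23 YY1 matches, 15 began at or after the start base and 17 lay on the gene's strand, where these letters hold ATG, whereas 39 of 45 ETS matches began before it. A match is a description of letters and not of a bound site.

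The regions below, 60 bases each on the gene's strand from RefSeq (GRCh38.p14), show these letters in capitals for the S18 paralogs, for 4 of the 8 highest or 8 lowest members and for MRPL45, the membrane anchor. MRPS18A (chr6:43687749-43687808, minus strand) and MRPS18B (chr6:30617830-30617889, plus) carry the YY1 letters just after the start, and MRPS18C (chr4:83455809-83455868, plus) carries the ETS letters far before it. MRPS18A holds the ETS letters too, upstream of the stretch shown, so these letters do not set MRPS18C apart. MRPL17 (chr11:6683387-6683446, minus) holds the 1 exact match to the NRF1 letters searched among the 68 members with a region. MRPL16 (chr11:59810752-59810811, minus), MRPL48 (chr11:73787784-73787843, plus) and MRPL30 (chr2:99181012-99181071, plus), all among the 8 lowest, hold the ETS letters on the other strand (CTTCCGG), and MRPL45 (chr17:38297155-38297214, plus) those of YY1. MRPS21 and MRPL53, both among the 8 highest and not shown, also hold CTTCCGG, so it does not mark the lowest members.
MRPS18A: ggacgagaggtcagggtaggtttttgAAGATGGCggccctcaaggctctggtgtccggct
MRPS18B: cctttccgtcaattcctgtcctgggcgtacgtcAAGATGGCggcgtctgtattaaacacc
MRPS18C: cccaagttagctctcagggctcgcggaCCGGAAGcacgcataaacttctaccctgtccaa
MRPL17: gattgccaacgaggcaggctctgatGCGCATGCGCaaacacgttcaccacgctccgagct
MRPL16: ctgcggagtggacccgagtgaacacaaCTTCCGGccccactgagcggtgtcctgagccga
MRPL48: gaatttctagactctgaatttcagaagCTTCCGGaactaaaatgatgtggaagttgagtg
MRPL30: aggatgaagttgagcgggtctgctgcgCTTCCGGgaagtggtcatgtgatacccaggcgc
MRPL45: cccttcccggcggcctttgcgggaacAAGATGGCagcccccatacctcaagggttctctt

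Set beside the values, the 20 members with YY1 letters had a median difference of -0.079 and ranged from -0.18 to 0.089. Of them 15 were lower and 5 higher, beside 48.3% and 48.8% of all kept genes. The 48 without them had a median of -0.0058, with 25 lower and 21 higher, and ranged from -0.34 to 0.59. Of the 8 members past 1.2-fold, 6 had a region in the table, and MRPL2 and MRPL10 had none. Of the 6, 0 carried the YY1 letters, beside 20 of all 68 members with a region, and 6 genes are too few to compare shares. The split by these letters was not tested. For the ETS letters the medians were -0.045 over 30 members with a match and -0.057 over 38 without, so the classes hardly differed.

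Other genes of mitochondrial translation were close to the ribosomal proteins. Of 5 ribosomal proteins that carry other names, 4 were measured. CHCHD1 was at -0.26, PTCD3, which sits at the mRNA entrance, at -0.20, the GTP-binding protein DAP3 at 0.094 and GADD45GIP1 at 0.039. The 14 translation factors and mRNA-handling proteins measured of 16 listed had a median of -0.091, with 10 lower and 3 higher. At 1.2-fold 1 of them was lower, 7.14% beside 13.6% of all kept genes. This was MTRF1L, the release factor, at -0.26, with MTRFR, a rescue factor, at 0.22, the insertase OXA1L at 0.21 and SLIRP, which stabilises mitochondrial mRNAs, at -0.20 next in size. The 25 assembly and rRNA modification genes had a median of -0.080, with 2 higher and 2 lower at 1.2-fold, 8% each and below the 15.3% and 13.6% of all kept genes. MTERF3 was the lowest at -0.45, followed by MALSU1 at -0.29, and the helicase DDX28 at 0.29 and the methyltransferase NSUN4 at 0.28 were the highest.

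A list of 13 regulators held factors for nuclear genes of mitochondria and, as TFAM, TFB2M and POLRMT, proteins that act on mitochondrial DNA. Their median was -0.13, with 7 lower and 6 higher. The factor YY1 was at log2 8.06 in control and 7.66 with LXR623, a difference of -0.40. TFAM, which packs mitochondrial DNA, differed by -0.34, the coactivator PPARGC1A by -0.30 and the ETS factor GABPA by -0.25. The first 3 of these were past 1.2-fold, 23.1% of the list beside 13.6% of all kept genes. None of the list was higher by that amount, and 13 genes are too few to compare shares. NRF1 differed by 0.028.

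The cytosolic ribosomal proteins were set beside the mitochondrial ones as the most similar family. Of 59 genes, 54 passed the filter, with a median of 0.044, 31 higher and 22 lower. Their interquartile range was 0.31 wide, near the 0.32 of all kept genes, and single genes reached -0.74 (RPL32) and 0.72 (RPL23A). This family thus scattered more widely than the 76 mitochondrial genes and about as widely as all kept genes. These genes have many pseudogenes, and their single values are uncertain. RPL36A at -0.67 and RPL27A at 0.63 were the next in size. By mean level over both arrays RPL36A was at log2 4.01, RPL32 at 5.09, RPL27A at 5.66 and RPL23A at 7.92. The median level of the mitochondrial members was 7.82. Over all kept genes the SD of the differences was 0.31 in the lowest of the 5 level groups and 0.25 in the highest. What part level had in the wider scatter was not tested.

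**Figure D4:**
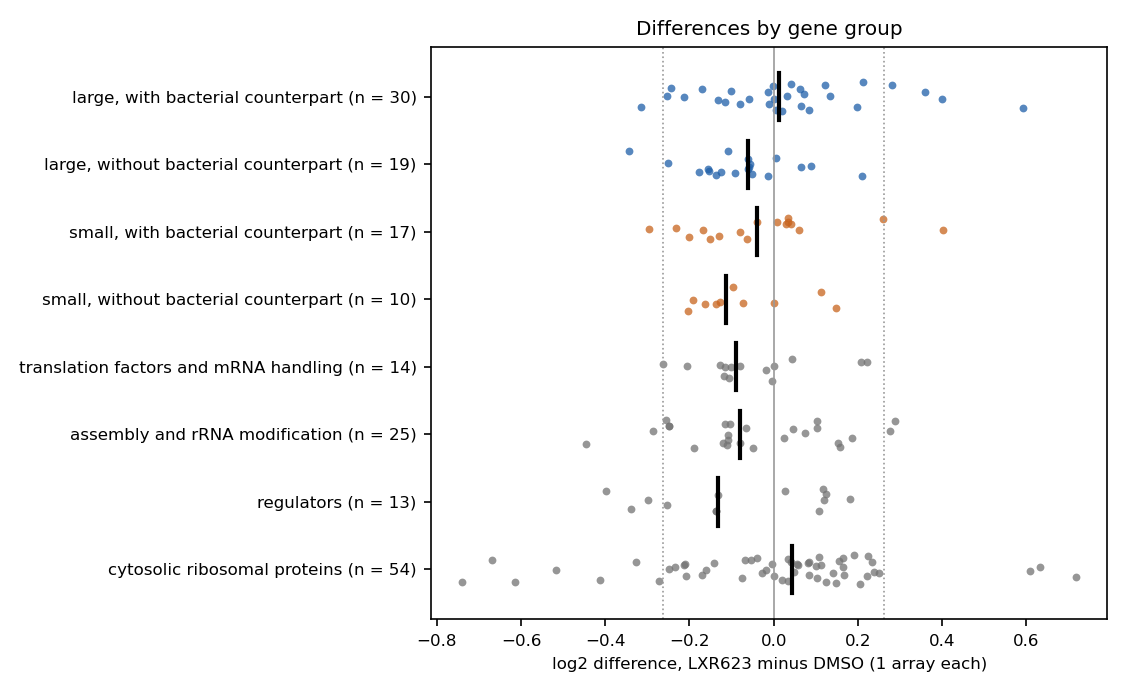
Log2 difference, LXR623 minus DMSO with 1 array each, of every kept gene in 8 groups, with black bars at the medians and dotted lines at 1.2-fold. The members without a bacterial counterpart centre below 0 in both subunits, at -0.062 and -0.11, and the cytosolic ribosomal proteins reach farthest to both sides.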

How the data were processed

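U87 RNA was hybridised to 1 array for the DMSO control and 1 for LXR623 after labelling with an Affymetrix kit. According to the submitters' processing notes, the authors made the deposited log2 values by RMA, which includes quantile normalization, with affy 1.36.1 in R 2.15.1. No source used here gives the array model or build. Quantile normalization removes a shift shared by most genes. Of the probe sets, 22458 had 1 gene symbol, 0 had several and 1328 had none, and each gene had 1 set. A gene was kept if its average level was at least log2 3.39, the 25th percentile. The difference was LXR623 minus control. With 1 array a group no test exists, and precision is limited by the number of arrays.

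Members, gene lists, classes and motifs were chosen with earlier results of these data known. Named members were the 8 highest and 8 lowest differences and all members of 6 groups by place in the ribosome; list genes were up to 4 with the largest absolute difference. Bacterial counterparts and ribosome places were assigned from general knowledge. Promoters and gene spans came from RefSeq (GRCh38.p14). Alternatives were scaling, filter, summary and membership. The computation was tested on simulated data. Python 3.11.15, numpy 2.4.6, pandas 2.3.3, statsmodels 0.14.6 and matplotlib 3.10.9 were used.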

Additional observations from a re-analysis of the deposited data

How the results depend on the processing

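The median of all members stayed below 0 under each scaling, at -0.094 with the arrays centred, -0.032 with a curve on level removed and -0.051 with curves on level and gene span removed; it was 0, and that of the large subunit turned to 0.0057, without members that have a pseudogene in RefSeq, which was added once values were known. A filter at the median level kept 74 members, without MRPL1 and MRPL43, and left the medians and the counts at 1.2-fold as they were. The large minus small subunit difference ran from 0.028 to 0.078 over the alternatives. Centring lowers every difference by 0.040 and left 4 members higher and 7 lower at 1.2-fold. At 1.5-fold there were 1 and 0, 1 in all. With curves on level and span removed, also added later for the lists, the median was -0.036 for translation factors, -0.075 for regulators and -0.010 for cytosolic ribosomal proteins, and the mean of regulators was -0.078. The cause was not tested. Of 108 values of the 36 named members under the scalings, 5 values near 0 changed sign, those of MRPL11, MRPL24 and MRPL46 with a curve on level removed and of MRPS18A and MRPS2 with centring. Taking the brightest of several probe sets gave no value, since each gene had 1. No paired analysis was possible because there was 1 array per condition. Signal over background was not analysed here.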

Other observations

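Many members share a promoter region with a gene that starts in the opposite direction. Among the 68 members with a start in the RefSeq table, 19 had such a partner past the level filter within 1000 bases, counting MRPS11 and MRPL46, which are partners of each other (0.061 and -0.014). The partners had a median difference of 0.011, and over the 19 pairs, which are not independent, Spearman's rho with the members was -0.054. Of the partners 3 were higher and 5 lower at 1.2-fold, beside 15.3% and 13.6% of all kept genes. MRPL57 differed by 0.065 and its partner SKA3, a kinetochore gene, by -0.48. MRPS27 differed by -0.14 and PTCD2 by -0.47, MRPL50 by -0.14 and ZNF189 by -0.41, and MRPS2 by 0.033 and PIERCE1 by 0.51. MRPS18C differed by 0.40 and its partner HELQ, a DNA repair helicase, by -0.12. MRPS12 and SARS2, the mitochondrial seryl-tRNA synthetase, differed by 0.041 and 0.086. These partners were chosen after their values were seen, except where the rule fixed the gene.

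The antisense transcript MRPL20-AS1 differed by 0.31 and MRPL20 by 0.019. MRPL23-AS1 differed by -0.031 and MRPL23 by 0.064.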
